A study of Mus musculus with 6 samples.

Results

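The receptor chains that take up interleukin-1 (IL-1), interleukin-18 (IL-18) and interleukin-33 (IL-33), together with the adaptor that their signals share, were examined in regulatory T cells (Treg) from mice with a conditional knockout of inositol polyphosphate multikinase (IPMK), an enzyme that phosphorylates inositol phosphates. There were 6 members, Il1r2, Il1rl1, Il18r1, Il18rap, Il1rap and Myd88, of 23282 entries in each count file, and they were taken by gene symbol. The set was chosen because Il1r2 had one of the smallest p-values among genes lower in IPMK-deficient Treg. The comparison of Il1r2 between the genotypes is therefore a description with no test, and the other members are likewise described without p-values of their own.

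The Treg came from spleens of C57BL/6 mice, were isolated by FACS and received no stimulation. The groups were IPMK cKO (conditional knockout of Ipmk, 3 libraries) and wild type (3 libraries), each titled as a biological replicate. The Cre driver, the deleted part of Ipmk, and the age and sex of the mice are not given in these sources. No label ties a library to an animal of its own. The p-values therefore reflect spread between libraries, and part of that spread may be technical.

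Receptors of the IL-1 family work as pairs of chains. A ligand-binding chain (Il1rl1, also called ST2, for IL-33, or Il18r1 for IL-18) recruits an accessory chain (Il1rap for IL-1 and IL-33, Il18rap for IL-18), and the paired intracellular TIR domains bind the adaptor MyD88, which passes the signal through IRAK kinases and TRAF6 to NF-kappaB. Il1r2 is a decoy: it binds IL-1 but has no TIR domain and passes no signal. In Treg, ST2 marks activated cells that home to tissues and respond to IL-33, and the IL-1 decoy receptor is likewise known from activated Treg.

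Libraries held 7464546 to 8980395 counts, and the ribosomal RNA precursor Rn45s took 16.7% to 32.1% of them. IPMK cKO replicate 1 stood apart, with Pearson correlations across genes of log2 CPM (CPM are counts scaled to library size) of 0.659 to 0.731 with the other libraries, against 0.710 to 0.866 among the rest. Ipmk (chromosome 10, 71347763 to 71433327 on mm10) had 3, 21 and 0 counts in the IPMK cKO libraries and 129, 77 and 99 in the wild type libraries, so every library went with its label. A two-sided exact permutation test on CPM gave p = 0.1, and 3 libraries a group can give no smaller value. The T cell genes Cd3e, Cd3d, Cd3g and Cd4 and the Treg genes Foxp3, Il2ra, Ctla4, Ikzf2 and Tnfrsf18 were detected in every library. The 4 T cell genes summed to 1096 to 1659 CPM in IPMK cKO and 1345 to 1389 CPM in wild type. Summed over the 5 Treg genes the level was 1577 to 2101 CPM in IPMK cKO and 1577 to 2467 CPM in wild type. Of 10475 genes tested, edgeR (quasi-likelihood, Benjamini-Hochberg adjusted p under 0.05) called 0, or 0%. At an unadjusted p under 0.05 edgeR gave 143 higher and 125 lower genes, while DESeq2 called 4 genes, none of them a member, and limma-voom called 0.

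The decoy Il1r2 and the IL-33 receptor Il1rl1 were the members whose levels stood apart between the genotypes, both lower in IPMK cKO Treg. Il18r1 and Il1rap averaged lower in IPMK cKO with overlapping libraries, and the IL-18 accessory chain and the adaptor overlapped as well. Il1r2 averaged 7.31-fold lower and Il1rl1 2.54-fold lower in IPMK cKO by the ratio of means, and in these 2 of 6 members the highest IPMK cKO library was under the lowest wild type one. Over all genes tested, 5.66% lay that way and 4.74% the opposite way. None of the 6 members was called by edgeR, against 0% of all genes. All 6 members passed the filter on low counts. Their median log2 fold change (IPMK cKO over wild type) was −1.03, with 5 estimates below 0 and 1 above, beside a median of +0.03 over all genes tested. The members' median was −1.69 without IPMK cKO replicate 2, and −1.17 to −0.79 when each of the other libraries was left out in turn. Since the members were picked from this contrast, nothing is read from these counts and medians. In bulk samples, fewer cells that carry a receptor and less of its RNA per cell cannot be told apart.

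**Figure D1:**
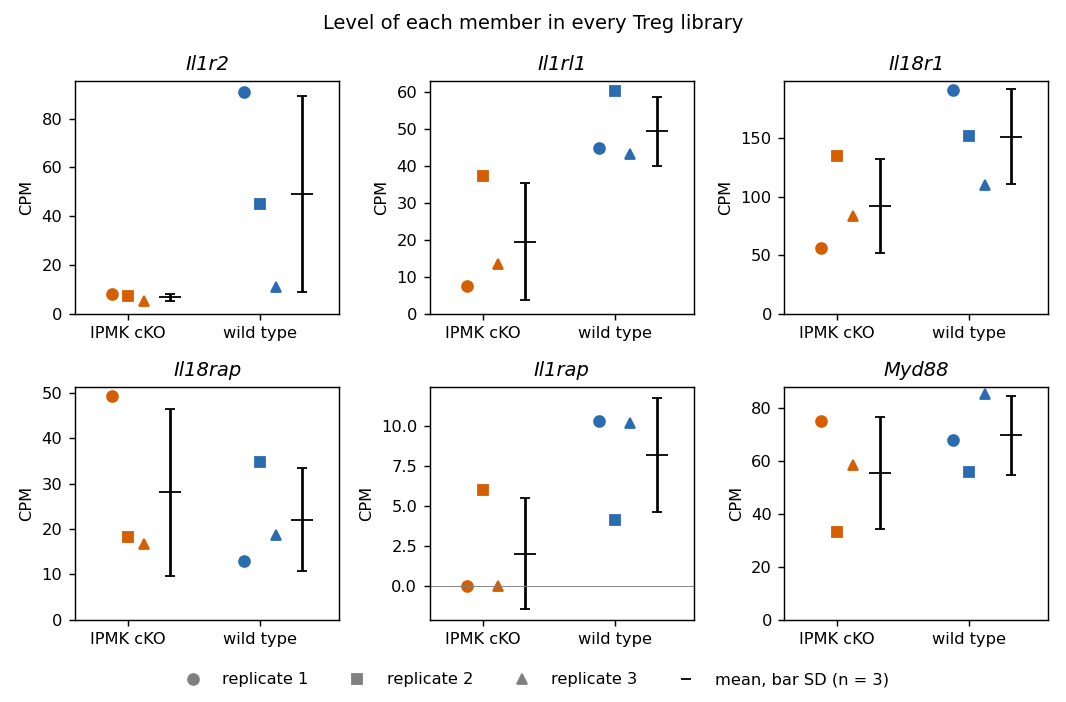
Level of the 6 members in CPM (vertical axis, linear) in each IPMK cKO library (orange) and wild type library (blue). Symbols give the replicate number, and the horizontal mark and bar give the mean and SD over 3 libraries. Il1r2 and Il1rl1 are the 2 members whose groups do not overlap.

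The decoy receptor Il1r2 (ENSMUSG00000026073, chromosome 1, 40074079 to 40125231, plus strand; mm10) had 56, 54 and 51 counts in IPMK cKO replicates 1 to 3. It had 757, 329 and 106 counts in wild type replicates 1 to 3. On the CPM scale it was 7.88, 7.06 and 5.18 CPM in IPMK cKO, against 91.1, 45.0 and 11.0 CPM in wild type. The IPMK cKO libraries were alike and all low, whereas the wild type libraries spanned an 8.26-fold range and the lowest of them was only 1.40-fold above the highest IPMK cKO library. The means were 6.70 ± 1.39 CPM in IPMK cKO and 49.0 ± 40.2 CPM in wild type (SD, n = 3 each), and the log2 fold change was −2.87 (SE 0.76). Much of that size came from wild type replicate 1, and the log2 fold change was −2.06 without it. That library also had the lowest level of the Treg lineage factor Foxp3 (85.1, 72.0 and 82.3 CPM in IPMK cKO, against 10.3, 80.6 and 29.0 CPM in wild type). The part of that difference in the Il1r2 result was not tested.

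Il1r2 is also abundant in neutrophils. Of 7 neutrophil markers analysed, Retnlg, Mmp8 and Ngp had no count in any library, S100a8 had at most 1 count and S100a9 at most 3, and the summed level was 0.392 to 0.710 CPM in IPMK cKO and 0.312 to 3.42 CPM in wild type. The most abundant of these markers were Cxcr2, at 2 to 8 counts per library, and Camp, whose 16 counts all fell in wild type replicate 2. In wild type replicate 1, where Il1r2 was highest, the neutrophil sum was 0.963 CPM.

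The IL-33 receptor chain Il1rl1 (ENSMUSG00000026069, chromosome 1, 40429570 to 40465415, plus strand) had 54, 286 and 132 counts in IPMK cKO and 372, 440 and 415 in wild type. Its level was 7.60, 37.4 and 13.4 CPM in IPMK cKO, against 44.8, 60.1 and 43.2 CPM in wild type. Here the wild type libraries were the uniform ones, within a 1.39-fold range, and the IPMK cKO libraries spread over 4.92-fold. IPMK cKO replicate 2 came close to wild type, which was 1.16-fold higher in its lowest library. The means were 19.5 ± 15.8 CPM in IPMK cKO and 49.4 ± 9.37 CPM in wild type (SD, n = 3 each), with a log2 fold change of −1.34 (SE 0.61), and of −2.25 without IPMK cKO replicate 2. Mast cells and basophils also carry ST2, and of their 7 markers Mcpt8, Fcer1a and Prss34 had no count in any library. Their summed level was 0.141 to 11.0 CPM in IPMK cKO and 2.53 to 4.99 CPM in wild type. The IPMK cKO sum was nearly all Ms4a2 and Kit, with Kit counted only in IPMK cKO replicate 2. Among 6 genes taken as markers of type 2 innate lymphoid cells, which also carry ST2, Il5, Il13 and Calca had no count. The sum was 40.3 to 102 CPM in IPMK cKO and 60.0 to 85.9 CPM in wild type, led by Ccr6 and Il9r. Ccr6 made up most of it (33.2 to 89.1 CPM in IPMK cKO and 46.4 to 77.4 CPM in wild type). The sum therefore rests mainly on a single gene and is not read as a level of these cells.

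The RefSeq promoter windows of the 2 members whose groups did not overlap are shown, so that the decoy and the IL-33 receptor, and the separate starts of Il1rl1, can be set side by side. Each holds 300 bases around an annotated start on GRCm38.p6 (the assembly of mm10), plus strand, 5′ to 3′. All 6 members matched the RefSeq table, with 9 windows in all. Capitals mark any match, on either strand, to the E-box CACGTG, the STAT motif TTCNNNGAA, the motif GATAAG bound by GATA factors or the AP-1 motif TGANTCA. These motifs were chosen with the sequences in view, and no matches overlapped each other.
Il1r2 at chr1:40085843-40086142: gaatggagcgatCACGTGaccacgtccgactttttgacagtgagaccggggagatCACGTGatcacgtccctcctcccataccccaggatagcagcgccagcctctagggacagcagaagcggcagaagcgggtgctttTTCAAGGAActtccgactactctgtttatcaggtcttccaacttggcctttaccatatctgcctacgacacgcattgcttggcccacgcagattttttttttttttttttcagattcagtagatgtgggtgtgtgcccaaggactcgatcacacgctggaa
Il1rl1 distal start at chr1:40429320-40429619: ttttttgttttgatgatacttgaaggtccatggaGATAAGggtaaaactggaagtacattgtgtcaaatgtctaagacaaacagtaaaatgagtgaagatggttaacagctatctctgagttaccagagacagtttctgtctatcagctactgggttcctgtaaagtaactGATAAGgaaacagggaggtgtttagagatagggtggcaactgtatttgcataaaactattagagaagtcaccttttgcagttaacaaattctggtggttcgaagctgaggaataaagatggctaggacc
Il1rl1 proximal start at chr1:40439379-40439678: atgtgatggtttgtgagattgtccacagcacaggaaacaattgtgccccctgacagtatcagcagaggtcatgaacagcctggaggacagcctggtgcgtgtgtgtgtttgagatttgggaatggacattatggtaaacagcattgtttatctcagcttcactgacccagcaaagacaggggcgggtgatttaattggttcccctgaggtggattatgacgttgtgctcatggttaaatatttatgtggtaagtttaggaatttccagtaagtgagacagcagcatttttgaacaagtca

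The Il1r2 window held 2 matches to CACGTG and 1 to TTCNNNGAA, the distal Il1rl1 window held 2 matches to GATAAG, and the proximal Il1rl1 window held none of the 4 motifs. Of 32851 promoter windows in the table, 7.15% held CACGTG, 8.3% TTCNNNGAA, 7.44% GATAAG and 7.81% TGANTCA. These windows thus shared none of the 4 motifs with each other, though TTCNNNGAA also occurred in a window of Il18r1 (2 matches) and in that of Myd88 (1 match). A match describes letters only, and tags at the 3′ end do not say which start was used. In GENCODE M21 the Il1r2 transcript with 410 codons starts at 40084698, upstream of the Il1r2 window, which does not cover that start. The GENCODE start inside the window, at 40085985, belongs to a transcript with 2 annotated codons. Gata3, the GATA factor of Treg, had 449, 281 and 232 CPM in IPMK cKO and 230, 342 and 273 CPM in wild type, with overlapping groups (log2 fold change +0.19, SE 0.32).

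Il18r1 (ENSMUSG00000026070, chromosome 1, 40465552 to 40500854), the chain that binds IL-18, had 401, 1034 and 826 counts in IPMK cKO and 1590, 1112 and 1059 in wild type. Its level was 56.4, 135 and 83.8 CPM in IPMK cKO, against 191, 152 and 110 CPM in wild type. The groups overlapped, because IPMK cKO replicate 2 lay above wild type replicate 3. The means were 91.8 ± 39.9 CPM in IPMK cKO and 151 ± 40.6 CPM in wild type (SD, n = 3 each; log2 fold change −0.72, SE 0.38). The order of the IPMK cKO libraries was that of Il1rl1, with replicate 2 highest and replicate 1 lowest.

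Its partner Il18rap (ENSMUSG00000026068, chromosome 1, 40515362 to 40551705), the accessory chain needed for IL-18 signalling, had another pattern. It had 350, 139 and 165 counts in IPMK cKO and 107, 254 and 179 in wild type, or 49.2, 18.2 and 16.7 CPM in IPMK cKO against 12.9, 34.7 and 18.6 CPM in wild type. The groups overlapped. The highest level was in IPMK cKO replicate 1, the library with the lowest Il18r1, and the lowest was in wild type replicate 1, the library with the highest Il18r1. The means were 28.1 ± 18.4 CPM in IPMK cKO and 22.1 ± 11.3 CPM in wild type (SD, n = 3 each; log2 fold change +0.35, SE 0.66). Without IPMK cKO replicate 1 the estimate had the opposite sign (−0.34), and without both libraries numbered 1 it was −0.61, so no direction can be given for this chain. Natural killer cells carry both IL-18 receptor chains, and of their 6 markers Ncr1, Klra8 and Klre1 had no count. The summed level of these markers was 11.8 to 22.5 CPM in IPMK cKO and 2.73 to 7.94 CPM in wild type. In IPMK cKO it was nearly all Eomes (22.5, 11.8 and 15.0 CPM in IPMK cKO, against 0, 1.91 and 3.85 CPM in wild type), and in wild type replicate 1 all Klrb1c. Its part in the values of these chains was not tested.

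Il1rap (ENSMUSG00000022514, chromosome 16, 26581704 to 26730117), the accessory chain that IL-1 and IL-33 receptors share, was detected in every wild type library and in 1 of 3 IPMK cKO libraries. It had 0, 46 and 0 counts in IPMK cKO and 86, 30 and 98 counts in wild type. The single positive IPMK cKO library, replicate 2 with 6.01 CPM, lay above wild type replicate 2 with 4.10 CPM, so the groups overlapped. A count of 0 allows up to 0.422 CPM in IPMK cKO replicate 1 and 0.304 CPM in IPMK cKO replicate 3, taking 3 counts as the limit. Such a limit covers counting error alone, because PCR copies are not separated from distinct molecules. Wild type replicates 1 and 3 had 10.3 and 10.2 CPM. The log2 fold change was −2.03 with an SE of 2.11, larger than the estimate itself. Without IPMK cKO replicate 2 it was −9.13, a fitted value that is no bound, because the IPMK cKO libraries then held no count.

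The adaptor Myd88 (ENSMUSG00000032508, chromosome 9, 119335934 to 119341411, minus strand) had 75.1, 33.2 and 58.4 CPM in IPMK cKO, against 68.0, 55.6 and 85.2 CPM in wild type. The groups overlapped. The lowest library was IPMK cKO replicate 2, which had the highest Il1rl1, Il18r1 and Il1rap of its group. The means were 55.6 ± 21.1 CPM in IPMK cKO and 69.6 ± 14.8 CPM in wild type (SD, n = 3 each; log2 fold change −0.33, SE 0.41).

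IPMK cKO replicate 2 was thus the library that held several members near wild type. It also had the most Ipmk counts of its group (21, against 3 and 0 in replicates 1 and 3). More genes were detected in it (12096, against 10311 and 10529), and its correlation with wild type replicate 2 (0.866) was the highest of any pair. The part of these traits in the members' values was not tested. Without that IPMK cKO library, 4 of 6 members (Il1r2, Il1rl1, Il18r1 and Il1rap) lay lower in both remaining ones than in any wild type library. The same held for 13.9% of all genes tested in that comparison. That library was left out because it was the exception, Il1r2 is the gene the set was chosen for and Il1rap passed the filter through its wild type counts, so nothing is read from this count. The count was 2 of 6 without IPMK cKO replicate 1 (1116 of 11138 genes tested, 10%), without IPMK cKO replicate 3 (11.8%) or without wild type replicate 1 (10.6%). It was 3 of 6 without wild type replicate 2 (10.6%), without wild type replicate 3 (8.90%) or without both libraries numbered 1 (17.4%).

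**Figure D2:**
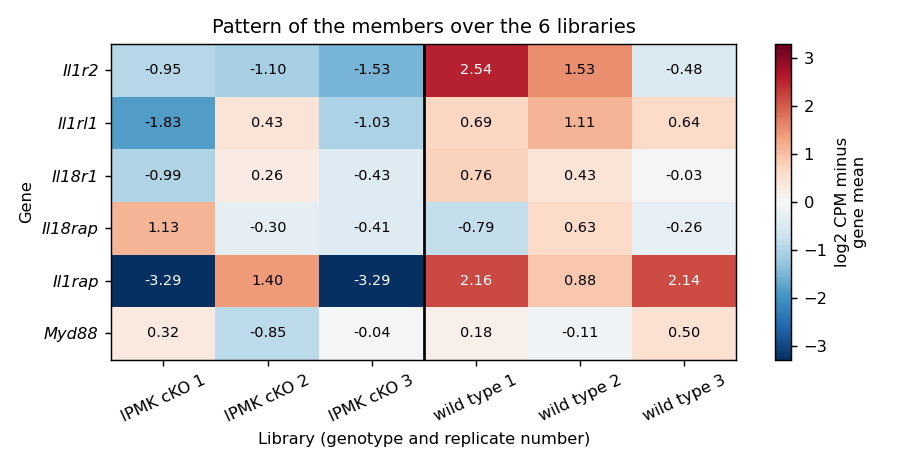
Log2 CPM of each member minus its own mean over the 6 libraries (colour and printed value; rows are genes, columns are libraries, IPMK cKO left of wild type). Il1rl1 and Il18r1 share their order within IPMK cKO, while Il18rap is highest in IPMK cKO replicate 1.

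The decoy and the IL-33 receptor had opposite patterns of spread within the genotypes. The SD of log2 CPM was 0.30 in IPMK cKO and 1.54 in wild type for Il1r2, and 1.15 in IPMK cKO and 0.26 in wild type for Il1rl1. The biological coefficient of variation fitted by edgeR was 0.629 for Il1r2, where genes of its abundance had 0.598. It was 0.544 for Il1rl1 (0.535 at its abundance), 0.360 for Il18r1 (0.361) and 0.387 for Myd88 (0.423). It was 0.598 for Il18rap (0.629) and 1.62 for Il1rap (1.43). Each fitted value is drawn towards that of genes of like abundance, so these values differ less between genes than the raw spread does.

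Likeness of pattern was measured as the root mean square difference between 2 genes' log2 CPM over the 6 libraries, each centred on its own mean. Among the members the nearest pair was Il1rl1 and Il18r1, with a difference of 0.580, followed by Il18rap and Myd88 with 0.725. The largest difference was 2.75, between Il18rap and Il1rap. The search over the genes tested left out predicted and clone-named genes, repeated symbols, and T cell receptor and immunoglobulin segments. In that set the nearest to Il1rl1 were Egr2 (0.198), Edc3 (0.229) and Arl8a (0.234). For Il18r1 they were Lats2 (0.102), Cul3 (0.141) and Srsf10 (0.149). Il1r2 had no gene as close in that set, and its nearest were Ifi30 (0.631), Aebp1 (0.676) and Ttc39c (0.708). The nearest genes were Cep164 (0.174), Tssc1 (0.177) and Ogfr (0.180) for Il18rap, Cep89 (0.192), Gnb1l (0.230) and Bmpr1a (0.236) for Il1rap, and Psmd10 (0.115), Pkm (0.125) and Zfp277 (0.127) for Myd88.

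Il1r2, Il1rl1, Il18r1 and Il18rap lie in a single cluster of 6 receptor genes that spans 477.6 kb of chromosome 1 (40074079 to 40551705 on mm10), all on the plus strand. In chromosomal order the cluster reads Il1r2, Il1r1, Il1rl2, Il1rl1, Il18r1 and Il18rap, with the kinase gene Map4k4 before it and the sodium/proton exchanger genes Slc9a4 and Slc9a2 after it. Detection differed between neighbours. The signalling IL-1 receptor Il1r1, next to the decoy, had 123, 0 and 0 counts in IPMK cKO and 37, 0 and 0 in wild type, so it was seen only in the 2 libraries numbered 1. The IL-36 receptor Il1rl2, and beyond the cluster Slc9a4, Slc9a2 and Tmem182, had no count in any library. Mfsd9 had 0, 9 and 0 counts in IPMK cKO and 56, 0 and 0 in wild type. Map4k4 had 498, 368 and 463 CPM in IPMK cKO and 477, 319 and 322 CPM in wild type, and these groups overlapped (log2 fold change +0.25, SE 0.28). Of the 11 genes from Map4k4 to Tmem182, 5 could be tested, and 0 were called in either direction, 2 having estimates above 0 and 3 below.

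**Figure D3:**
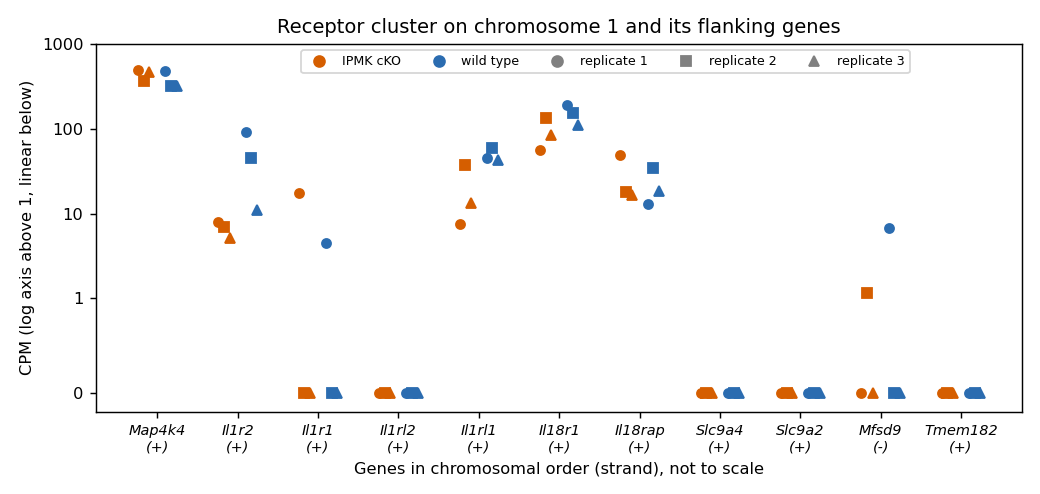
CPM of the 11 genes of the chromosome 1 cluster and its flanks, in chromosomal order with strand (horizontal axis, not to scale), for each IPMK cKO library (orange, left) and wild type library (blue, right); the vertical axis is logarithmic above 1 CPM and linear below. Il1rl2, Slc9a4, Slc9a2 and Tmem182 sit at 0 in all 6 libraries, and Il1r1 is above 0 only in the libraries numbered 1.

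The libraries read tags at the 3′ ends of transcripts, and the files give 1 value per symbol, so isoforms with separate 3′ ends are summed. For Il1rl1, GENCODE M21 lists membrane-type transcripts with 567 codons that end at 40465396 and 40465415, and shorter ones with 337 codons that end at 40448148 and 40446723. The shorter form is known as soluble ST2, a decoy for IL-33. In that annotation the distal start opens a transcript of the short form, whereas transcripts of both forms start at or near the proximal one. Il1rap likewise has transcripts with 570 codons (ending at 26717744) and 360 codons (ending at 26702356), and Il18r1 has transcripts with 537 and 372 codons. Whether the membrane or the soluble form was lower cannot be told apart in these values. The last base of Il1rl1 and the first of Il18r1 are separated by 136 bases. Exons of Myd88 overlap Acaa1a on the opposite strand by 290 bases, and those of Il1rap overlap the antisense gene Gm20319 by 552 bases. No source gives the strand setting of the counting, so reads in those stretches cannot be assigned with certainty.

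Most other genes of the family had few or no counts in these Treg. Among 8 other receptors and regulators (Il1r1, Il1rl2, Sigirr, Il1rapl1, Il1rapl2, Il1rn, Il18bp and Il36rn), 7 were analysed, 3 had no count and 2 could be tested, with 0 called higher and 0 lower. Sigirr, a TIR-domain receptor that dampens IL-1 family signals, had 57.4, 31.2 and 23.9 CPM in IPMK cKO and 30.3, 41.8 and 59.1 CPM in wild type (log2 fold change −0.22, SE 0.49). Il18bp, the soluble binder of IL-18, had 81, 56 and 55 counts in IPMK cKO and 0, 26 and 56 in wild type (log2 fold change +1.37, SE 1.74). The IL-1 receptor antagonist Il1rn had 0, 0 and 0 counts in IPMK cKO and 1, 0 and 12 in wild type. Of the ligands, Il33 had no count in any library, Il1b had 1 count in all, in wild type replicate 3, and Il18 had 21, 8 and 0 counts in IPMK cKO and 86, 19 and 0 in wild type. Among the 12 ligand and processing genes, of which 9 were analysed, 3 could be tested (Il18, the IL-1-converting protease Casp1 and the inflammasome adaptor Pycard), and 0 were called. Their median log2 fold change was −0.98, with all 3 estimates below 0. It was −0.58 without IPMK cKO replicate 1, and −0.43 without wild type replicate 1 or wild type replicate 3.

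The chain that carries the signal from MyD88 to NF-kappaB was expressed. Of 22 genes, 21 could be tested, and edgeR called 0 higher and 0 lower, with 10 estimates above 0, 11 below and a median of −0.02. The kinase Irak1 had 114, 151 and 89.2 CPM in IPMK cKO and 105, 157 and 131 CPM in wild type (log2 fold change −0.15, SE 0.32). Irak4, the kinase that MyD88 binds first, had 31.5, 53.2 and 2.64 CPM in IPMK cKO and 32.1, 43.5 and 62.8 CPM in wild type, so 1 IPMK cKO library was low (−0.67, SE 0.80). The ubiquitin ligase Traf6 had 12.5, 25.3 and 22.6 CPM in IPMK cKO and 7.10, 17.9 and 21.2 CPM in wild type (+0.39, SE 0.72). The 3 smallest p-values in this list were those of the ubiquitin-conjugating partners Ube2v1 and Ube2n (−0.59, SE 0.43) and of the ubiquitin ligase Peli2 (+2.89, SE 1.55), none with an unadjusted p under 0.05. Ube2v1 had 216, 45.1 and 65.9 CPM in IPMK cKO and 55.9, 59.4 and 47.9 CPM in wild type, so 1 IPMK cKO library stood out.

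NF-kappaB genes, many of which NF-kappaB itself induces, showed values in both directions. Of 14 tested, 0 were called in either direction, 3 had an unadjusted p under 0.05 (2.56% of all genes did), and 6 estimates lay above 0 and 8 below (median −0.19). The genotypes were apart in 5 of them, with IPMK cKO lower in 3 and higher in 2, where 5.66% and 4.74% of all genes were. Nfkb1, which encodes the p105 precursor of the p50 subunit, had 16.6, 45.2 and 47.4 CPM in IPMK cKO, against 92.6, 79.9 and 99.6 CPM in wild type (log2 fold change −1.32, SE 0.44). The adhesion molecule Icam1 had 11.0, 25.5 and 20.9 CPM in IPMK cKO, against 57.9, 44.7 and 53.0 CPM in wild type (−1.44, SE 0.49). The atypical inhibitor Nfkbiz, a known early gene of IL-1 signalling, lay the other way, with 220, 128 and 148 CPM in IPMK cKO and 122, 84.5 and 80.2 CPM in wild type (+0.79, SE 0.33). Those 3 genes each had an edgeR adjusted p of 0.9999 over all genes. The other two, named after their values were seen, were the inhibitors Nfkbie, lower in IPMK cKO (−0.43, SE 0.46), and Nfkbid, higher in IPMK cKO (+1.09, SE 0.50).

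**Figure D4:**
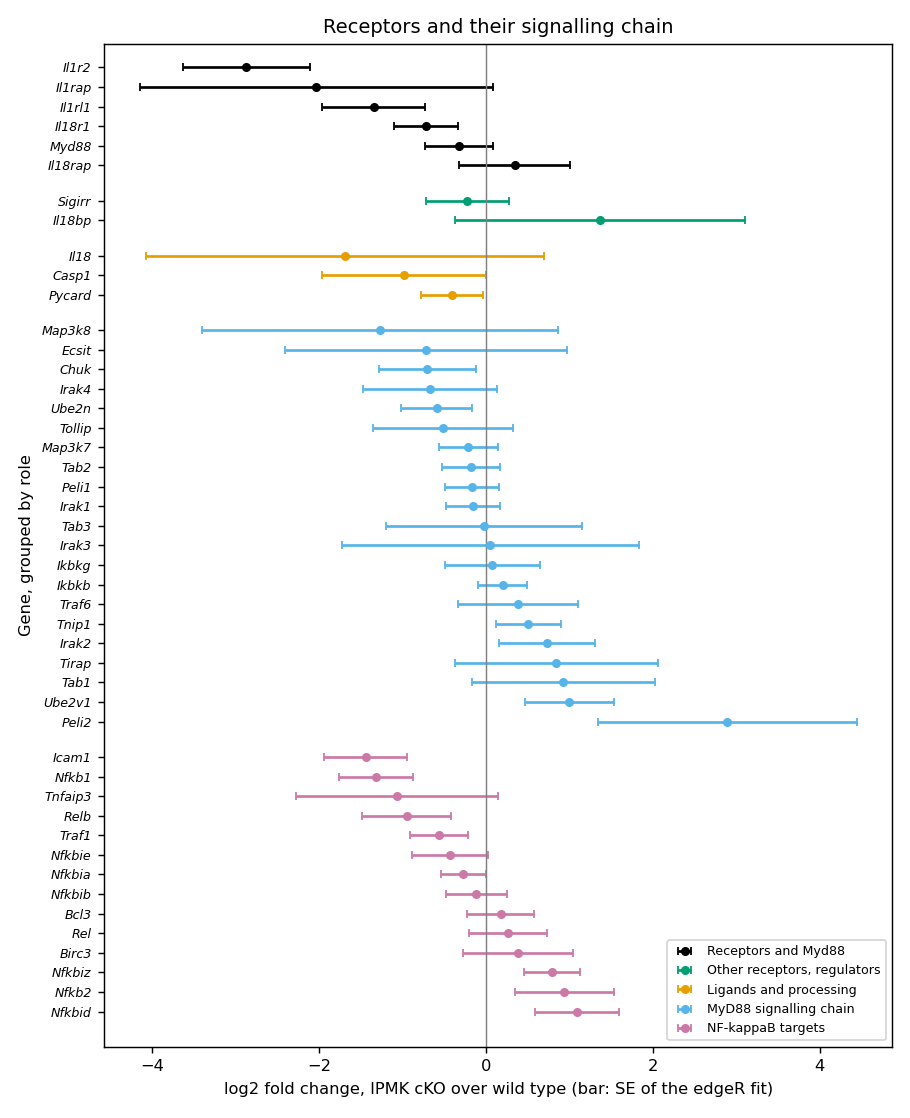
Log2 fold change of IPMK cKO over wild type (horizontal axis, points) with the SE of the edgeR fit (bars) for each tested gene, grouped by role from the receptors at the top to NF-kappaB genes at the bottom. None of the genes was called, and the signalling chain has 10 estimates above 0 and 11 below.

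Toll-like receptors, most of which use Myd88 as well, were sparse. Of 12, 4 had no count in any library and 4 could be tested, with 0 called. Tlr1, which pairs with TLR2, had 57.7, 48.1 and 22.1 CPM in IPMK cKO and 79.5, 51.0 and 69.2 CPM in wild type (log2 fold change −0.64, SE 0.44). Tlr12 (+2.13, SE 1.73) and Tlr7 (−0.67, SE 1.30) had overlapping groups.

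Genes known from ST2-positive tissue Treg were set beside Il1rl1. Of 19 genes, 15 could be tested and 0 were called by edgeR in either direction. Estimates were below 0 for 12 and above for 3, with a median log2 fold change of −0.87 beside +0.03 over all genes, and in 8 of 15 all IPMK cKO libraries were under all wild type ones, where 5.66% of all genes were. The list was chosen with lower levels of many of its genes in these libraries already known, so it is not independent evidence of its direction. Its count also holds Gzmb and Nfil3 (0, 57 and 1 counts in IPMK cKO, 160, 89 and 85 in wild type), which passed the filter through wild type. Such genes could lie lower in IPMK cKO or overlap, but could not lie higher, so nothing is read from the count. The inhibitory receptor Klrg1 had 26.2, 34.0 and 37.3 CPM in IPMK cKO, against 75.3, 50.7 and 123 CPM in wild type (−1.35, SE 0.43). The transcription factor Maf had 170, 258 and 214 CPM in IPMK cKO, against 440, 519 and 293 CPM in wild type (−0.96, SE 0.31). Gzmb, the protease granzyme B, had no count in IPMK cKO and 25, 16 and 29 counts in wild type. Taking 3 counts over the IPMK cKO group as the limit puts it at least 22.8-fold lower there. Such a bound covers counting error alone and leaves out the spread between libraries. The SE of its edgeR log2 fold change was 3.06. The list's median was −0.87 with Gzmb at that bound too. The 3 estimates above 0 were those of Areg (+0.35, SE 1.98), Gata3 (+0.19, SE 0.32) and Tnfrsf9 (+0.15, SE 0.35), each with overlapping groups. Areg and Tnfrsf9 were named after their values were seen. The tissue Treg regulator Pparg had no count in any library.

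For the other lists of cell markers, the most abundant genes were Ly6c2 and Cd68 for monocytes and macrophages (summed level 0.281 to 18.0 CPM in IPMK cKO and 7.07 to 12.8 CPM in wild type), Cd79b and Cd79a for B cells (7.10 to 13.1 CPM in IPMK cKO and 5.47 to 14.2 CPM in wild type) and Cd8b1 for CD8 T cells (2.11 to 8.62 CPM in IPMK cKO and 7.82 to 12.2 CPM in wild type). Adgre1, C1qb and Fcgr1 of the first list, Pax5 of the B cell list and Cd8a were at 0. Markers of dendritic cells, led by Xcr1 and Zbtb46, summed to 0.710 to 1.27 CPM in IPMK cKO and 2.05 to 15.4 CPM in wild type, with Flt3 and Itgax at 0. Erythroid markers, with Hba-a1 and Alas2 the most abundant, summed to 0 to 16.7 CPM in IPMK cKO and 0.120 to 56.3 CPM in wild type, with the highest sum in wild type replicate 2. The dendritic cell sums thus did not overlap between the genotypes, and their part in the members' values was not tested.

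**Figure D5:**
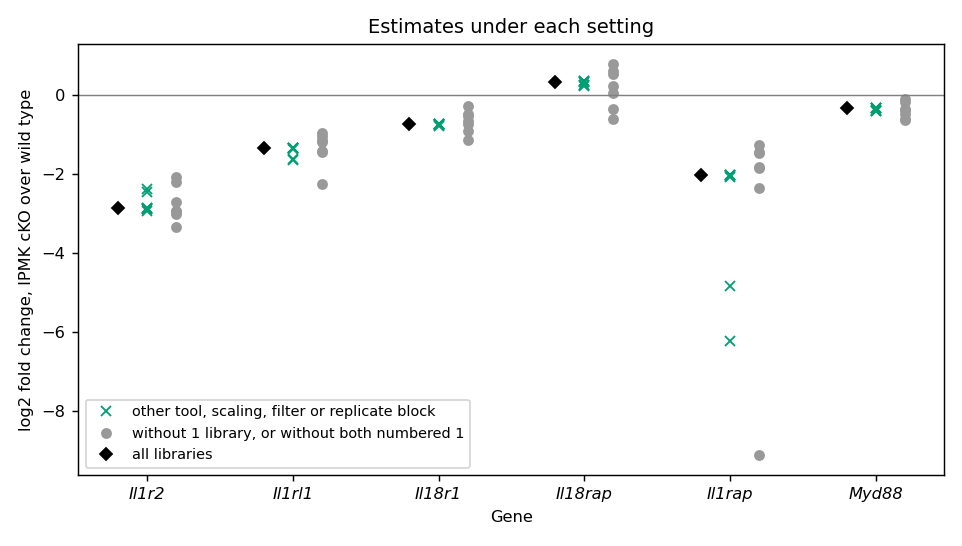
Log2 fold change of IPMK cKO over wild type for each member (vertical axis) with all libraries (diamonds), with another tool, scaling, filter or the replicate block (crosses), and without 1 library or without both libraries numbered 1 (circles). Il18rap is the member with estimates on both sides of 0, and the lowest Il1rap point comes from a fit in which the IPMK cKO group had no count.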

How the data were processed

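Per the labels' protocols, RNA came from Trizol extraction and went into Lexogen QuantSeq libraries, whose reads mark transcript 3′ ends. Each library has 1 deposited file of raw counts per gene symbol. The submitters' processing notes name Bowtie2, edgeR, mm10 and hg19 with no role; the counter, annotation, strand setting and filters are not stated there. In each file 35 symbols stood in 79 entries, none of them in the lists used, and were kept apart.

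IPMK cKO was compared with wild type with edgeR 4.0.16 in R 4.3.3: TMM scaling, filterByExpr (minimum count 10, 10475 genes kept), quasi-likelihood test and Benjamini-Hochberg adjustment over all genes tested, threshold 0.05. SEs are the estimate over the square root of F. CPM use TMM-scaled library sizes, and log2 CPM a prior count of 2. The procedure was run on simulated counts with known changes. Recovery of those changes was required only where the simulated spread was scaled below that of these data. The run therefore does not say how many true changes would be missed here. Alternatives were DESeq2 1.42.0, limma-voom (limma 3.58.1), other scalings and filters, a replicate block, and leaving out libraries. Genes named were the members, Ipmk, up to 3 genes per list by smallest p, genes fixed by name, the nearest patterns and abundant markers. Members and lists were chosen with earlier results of these data known. Coordinates are from GENCODE M21 on mm10.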

Additional observations from a re-analysis of the deposited data

How the results depend on the processing

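Among the genes tested, DESeq2 called 4 (Phospho1, S100a6, S100a11 and Smpdl3b), 1 was called without both libraries numbered 1 (Gdpd3; added after seeing the data), and the count was 0 to 1 when each library was left out in turn (the 1, without IPMK cKO replicate 1, was Gdpd3). No member and no gene of the lists was called under any of the 14 alternatives run (edgeR with all libraries: 0). The members lower in every IPMK cKO library were 2 with all libraries and 2 to 4 when each library was left out, a count chosen after seeing the data. Over all genes tested the share was 5.66% with all libraries and 8.90% to 13.9% with 1 left out, so the change in that count is not read as a result about the members. Il1r2, Il1rl1, Il18r1, Il1rap and Myd88 had estimates below 0 in 14 of 14 alternatives. Il18rap was below 0 in 2 of 14. The range was −3.34 to −2.06 for Il1r2, −2.25 to −0.97 for Il1rl1, −1.13 to −0.26 for Il18r1 and −0.62 to −0.09 for Myd88. It was −9.13 to −1.25 for Il1rap, the lowest without IPMK cKO replicate 2, which leaves no IPMK cKO count. Il1rap was −4.85 with limma-voom; the cause was not tested. Of 374 values recomputed, 357 stayed within the limit set for their kind and 17 did not. The limit was the within-group spread for fold changes and medians, and equality or a fixed ratio for counts and SDs. For Ipmk it was the sign and the adjusted p threshold. Many of the values were counts of genes called that stayed at 0. The scalings tried moved the median of all genes by at most 0.05 on the log2 scale.

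Deviations from the group means correlated weakly between libraries of the same replicate number (r = 0.0454, 0.0877 and 0.0265 across genes for numbers 1 to 3). Each library nevertheless correlated best with its own number, so these values do not settle whether the numbers pair the libraries. With the replicate block 0 genes were called, as without it, and the estimates were −2.45 for Il1r2, −1.64 for Il1rl1 and −6.24 for Il1rap. Il1rap, with 0 to 98 counts a library, had the widest range of the members.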
